A study of Mus musculus with 4 samples.

Results

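The genes described here encode the heat shock chaperones of the cytosol and mitochondria, their cochaperones and the heat shock factors. The list names 42 genes, of which 39 were read on the array out of 18194 genes in all, each by a single probe set, a group of array probes designed against a transcript, taken as the one with the greatest average signal. Hsp90ab1 and Hsf1 were not analysed here, and Ptges3 was read only by probe sets that also match its pseudogene. The arrays came from dendritic cells grown for 7 days from C57BL/6 mouse bone marrow with 10 ng/ml each of the cytokines IL-4 and GM-CSF, from at least 3 mice per experiment. CD11c-positive cells were selected to a stated purity of 95% and then received diluent (control, 2 arrays) or SAHA (2 arrays) for 12 hours, at a dose the labels write as 500 nm. The labels call the 2 arrays of a group biological replicates without saying whether each had its own marrow pool. A p-value here sets the group difference against a spread between arrays, estimated with the help of all genes. That spread may be only technical.

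Chaperones bind unfolded or unstable proteins and help them reach or keep their shape. HSP70 proteins bind and release short exposed stretches of a client in an ATP-driven cycle, J-domain proteins bring clients and start that cycle, and BAG and HSP110 proteins act as nucleotide exchange factors that end it. HSP90 takes over partly folded clients such as kinases and steroid receptors, with cochaperones that choose the client or set the pace of the cycle. Heat shock factor 1 raises many of these genes when unfolded proteins build up. SAHA, the drug vorinostat, inhibits several deacetylases of histones and also HDAC6, a cytosolic deacetylase for which HSP90 is a known substrate. Arrays measure RNA, so the acetylation of HSP90 was not measured, and the comparison asks whether the chaperone transcripts differed between SAHA and control.

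Hspb1, which encodes the small heat shock protein HSP27, rose 2.92-fold with SAHA and was the 1 member of the 39 past the threshold (limma, Benjamini-Hochberg adjusted p under 0.05 over 18194 genes). No member fell past it. Over all genes 2.23% passed, 1.52% higher and 0.709% lower with SAHA, so the count of members called was close to the background. The median log2 change over the 39 members was -0.03, against -0.05 over all genes, and 36 of the 39 (92.3%) had a change smaller than 0.5 log2 units, against 88.1% of all genes. The 95% interval of the change lay inside a 2-fold change in either direction for 35 of 39 members, and for 89.2% of all genes. No member had a value under the 25th percentile of its array.

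**Figure D1:**
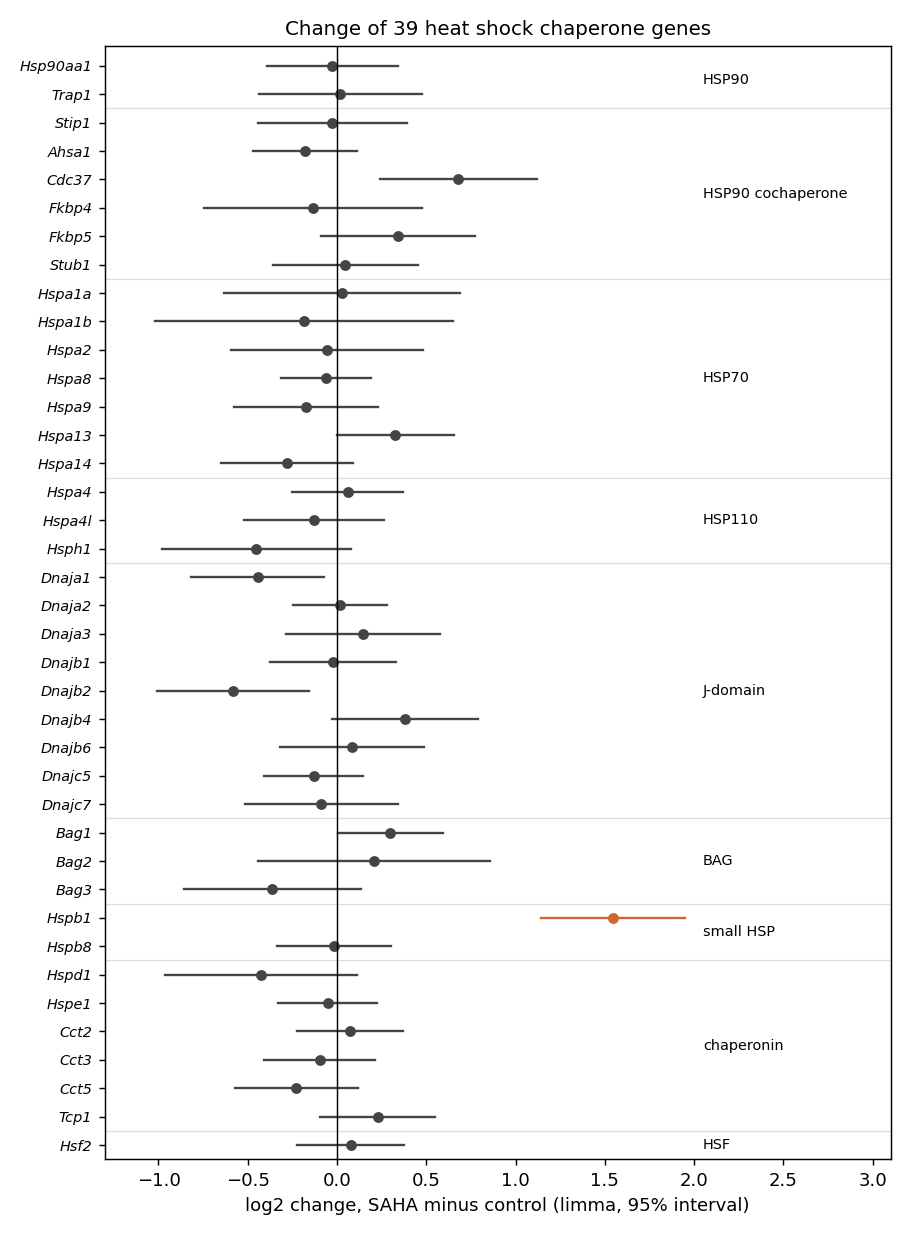
Log2 change (SAHA minus control, horizontal axis) of each of the 39 measured genes, grouped by role, with points at the estimate and bars for the 95% interval from limma over 2 arrays per group. Hspb1, in orange, at 1.54, is the 1 gene past the adjusted threshold, and the other points lie between -0.58 and 0.68.

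The letters of the heat shock element, the site that heat shock factors bind, were looked for in the RefSeq promoter windows of the members (build GRCm38.p6), over the 250 bases before each annotated start site. The element is made of GAA units in alternating orientation, searched here as the dimers GAANNTTC and TTCNNGAA, each of which reads the same on both strands. The trimer, in which GAANNTTC is followed by any 2 bases and a further GAA, was searched on both strands and contains both dimers. Windows were held for 35 of the 42 genes, and 14 of the 35 had at least 1 dimer, against 14.55% of the 27025 genes with a window. The trimer was present for 3 of the 35 (Dnajb6, Hspd1 and Hspe1), against 0.51% of all genes. A match describes letters only and is not a bound site. The stretches below belong to the 1 member past the threshold and to some of the members that hold either dimer and did not pass. The latter were chosen by name. Matched letters are in capitals, 5′ to 3′ on the gene's own strand.
Hspb1: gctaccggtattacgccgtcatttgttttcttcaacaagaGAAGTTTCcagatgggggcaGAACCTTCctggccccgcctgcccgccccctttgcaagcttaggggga
Hspa1b: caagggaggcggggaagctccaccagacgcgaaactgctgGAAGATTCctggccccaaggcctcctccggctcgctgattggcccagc
Hsph1: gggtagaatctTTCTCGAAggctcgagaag
Hspe1: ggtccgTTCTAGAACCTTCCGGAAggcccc
Dnajb6: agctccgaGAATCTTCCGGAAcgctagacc
Cdc37: tcggcgggaacTTCCAGAAggcctcaccac
The Hspb1 stretch is chr5:135887762-135887869 on the plus strand, from base -157 to base -50 before the start site, and holds 2 dimers. The Hspa1b stretch is chr17:34959295-34959382 on the minus strand, with its dimer starting at base -104. The other stretches overlap annotated genes and are cut to 30 bases. They are chr5:149636351-149636380 (minus) for Hsph1, chr1:55088053-55088082 (plus) for Hspe1, chr5:29735844-29735873 (plus) for Dnajb6 and chr9:21150086-21150115 (minus) for Cdc37. The Hspe1 stretch also lies in the window of Hspd1, its neighbour on the opposite strand, so both genes hold the same element. Among the 14 members with a dimer 1 was called (Hspb1), 7 had a change above 0 and the median log2 change was -0.01. Among the 20 measured members with a window and no dimer none was called by limma, 9 were above 0 and the median was -0.02. Over all genes 2.23% were called and 7502 of 18194 were above 0, with a median of -0.05. The difference between members with and without a dimer was not tested.

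Hspb1 encodes a small heat shock protein that holds unfolded proteins in solution without ATP and also binds actin. Its log2 levels were 6.84 and 6.72 on the control arrays and 8.46 and 8.19 on the SAHA arrays, so the groups were far apart and the arrays of each group close together. The mean went from 6.78 ± 0.09 to 8.32 ± 0.19 (SD, n = 2 per group), a log2 change of 1.54 with a 95% interval of 1.14 to 1.95 and an adjusted p of 0.0152 (limma). A second probe set read 5.50 and 5.68 in control and 7.95 and 7.30 with SAHA, a 4.08-fold rise that also passed when probe sets were tested one by one (adjusted p = 0.0235, limma), where 1.11% of 34958 probe sets passed. The identifiers of both probe sets mark designs whose probes may match more than 1 transcript, for the second set also of other genes. Without SAHA replicate 1 the change was 1.41 and the call was lost (adjusted p = 0.111, limma). It kept the threshold without each of the other arrays in turn, with adjusted p-values from 0.0152 to 0.0497. Hspb8, the other small heat shock protein on the list, works with BAG3 in selective autophagy. It read 5.21 and 5.26 in control and 5.19 and 5.24 with SAHA, a log2 change of -0.02 (95% interval -0.34 to 0.30). These levels lay below the array medians of 5.34 to 5.35, where a change may go unseen.

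Markers of neutrophils moved with the groups. All 7 measured markers were lower on both SAHA arrays than on both control arrays, 5 of them past the threshold (Ngp, Ltf, S100a9, Camp and S100a8), and the sum of their levels on the linear scale was 3104 and 2945 in control against 1436 on each SAHA array. The CD11c gene Itgax and the class II gene H2-Ab1 were read at 12.4 to 13.4 and 13.6 to 13.8 log2 units. Other dendritic markers read lower, such as Flt3 at 6.72 to 7.48 and Cd209a at 4.47 to 4.68. Of the macrophage markers Csf1r read 13.8 to 14.0, Cd14 12.7 to 13.0 and Mrc1 9.28 to 9.81. All 6 macrophage, 4 B cell and 5 T and NK cell markers had changes below 0. Of these 4, 2 and 2 were lower without overlap, where 29.6% of all genes were. The 10 dendritic markers went both ways, and no marker outside the neutrophil list passed by limma. Of all genes 18.1% had an unadjusted p under 0.05 (limma), with 3 dendritic, 1 macrophage, 1 B cell and 0 T and NK cell markers. The widest values among these were 1.09 for Ciita, 1.04 for Cd86 and -0.49 for Ccr7 on the dendritic list and -0.92 for Mertk (adjusted p = 0.0509, limma) on the macrophage list. The 3′ minus 5′ difference of the beta-actin probe sets was 0.16 to 0.23 in control and 0.24 to 0.26 with SAHA. For the Gapdh probe sets it was -0.11 and -0.21 in control and -0.13 and 0.002 with SAHA, so the groups overlapped. The part of these markers in the change of Hspb1 was not tested, and in bulk RNA fewer cells of a type and less RNA per cell cannot be told apart.

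Neither measured HSP90 gene passed. Hsp90aa1 encodes the stress-inducible cytosolic HSP90, and its log2 levels were 12.34 and 12.11 in control and 12.36 and 12.05 with SAHA. The groups overlapped, and the log2 change was -0.03 with a 95% interval of -0.39 to 0.34. Of its 5 probe sets 4 had every value above the 25th percentile, with changes from -0.24 to 0.07, none of which passed. Trap1, the HSP90 of mitochondria, read 9.65 and 9.28 in control and 9.64 and 9.32 with SAHA, a change of 0.02 (95% interval -0.44 to 0.47). For both genes the arrays of a group lay further apart than the group means did.

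Of the 6 measured HSP90 cochaperones none passed by limma over all genes, and 1 was under 0.05 before adjustment, where 18.1% of all genes were. That gene was Cdc37, the cochaperone that brings protein kinases to HSP90. It read 11.36 and 11.09 in control and 12.12 and 11.68 with SAHA, so both SAHA arrays lay above both control arrays. The change was 0.68 ± 0.18 (SE), or 1.60-fold, with a 95% interval of 0.24 to 1.12 and an adjusted p of 0.128 (limma). A second probe set gave 6.03 and 6.16 in control and 6.83 and 6.54 with SAHA, a change of 0.59. Fkbp5, an immunophilin that slows steroid receptor signalling, read 8.25 and 8.22 in control and 8.77 and 8.38 with SAHA (change 0.34, adjusted p = 0.380, limma), and its second well-read probe set gave 0.20. Ahsa1, which speeds the ATPase of HSP90, read 10.78 and 10.76 in control and 10.60 and 10.58 with SAHA. Its groups did not overlap and its arrays were close within groups, but the change was small, at -0.18 (adjusted p = 0.486, limma). Stip1, which links HSP70 to HSP90, the immunophilin Fkbp4 and the ubiquitin ligase Stub1 overlapped between groups, with changes from -0.13 to 0.05. The 2 probe sets that match both Ptges3, the p23 cochaperone, and its pseudogene gave -0.04 and -0.05.

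**Figure D2:**
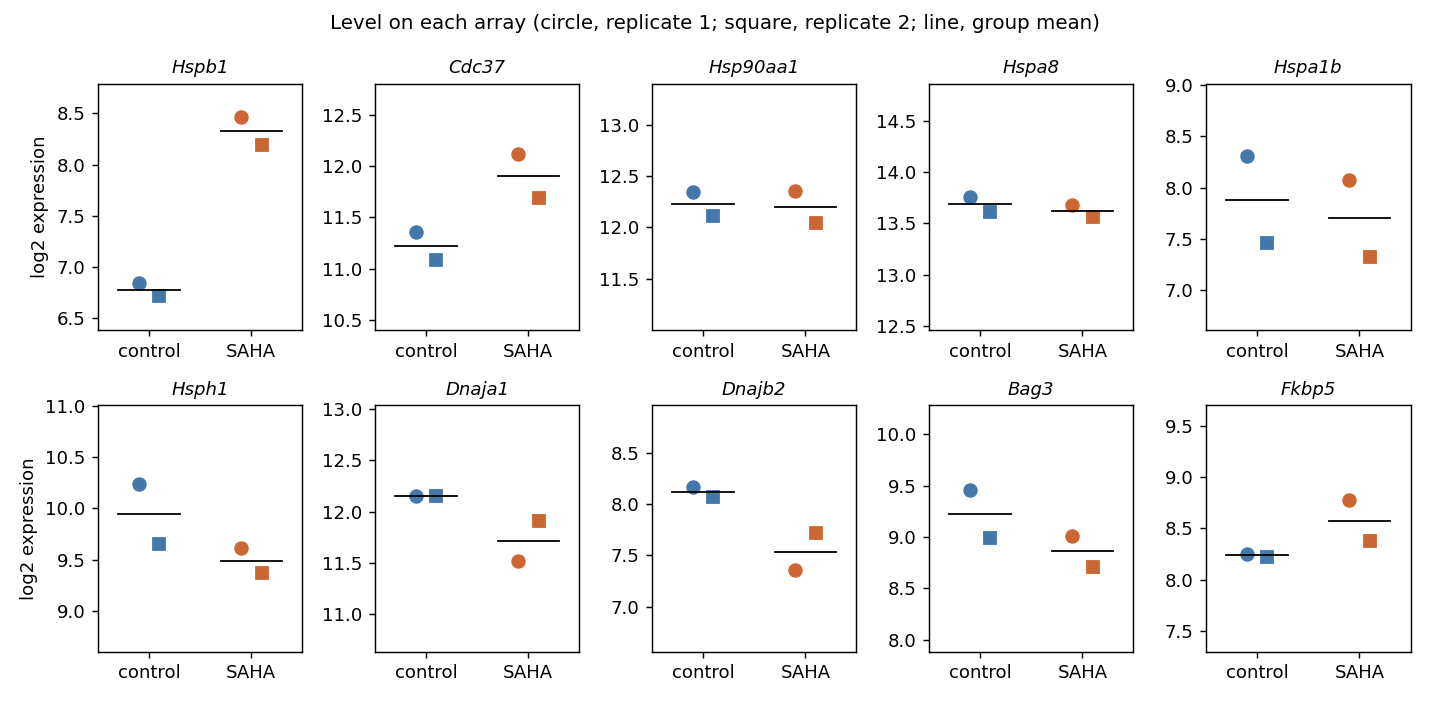
Log2 expression (vertical axis) of 10 members on each of the 4 arrays, with control in blue, SAHA in orange, circles for replicate 1, squares for replicate 2 and a line at each group mean; every panel spans the same range of log2 units around its own level. Hspb1 and Cdc37 lie higher on both SAHA arrays, while the Hsp90aa1, Hspa8 and Hspa1b groups overlap.

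None of the 7 measured HSP70 genes passed by limma, and 1 was under 0.05 before adjustment, where 18.1% of all genes were. Hspa1a and Hspa1b encode the stress-inducible HSP70 and are near-identical copies, so reads of one can include the other. Hspa1b read 8.31 and 7.46 in control and 8.08 and 7.32 with SAHA. The 2 arrays of each group lay 0.84 and 0.76 apart, whereas the group means differed by 0.18, with a 95% interval of -1.02 to 0.65 for the change. Its 3 probe sets gave changes from -0.18 to -0.04. Hspa1a read 6.89 and 6.50 in control and 7.09 and 6.35 with SAHA, a change of 0.03 (95% interval -0.64 to 0.69). For this inducible pair a change inside these wide intervals was not detectable by this fit, which leaves out the replicate number. Replicate 1 was the higher array in both groups for both genes. With replicate number added to the fit the SE of the Hspa1b change went from 0.35 to 0.13. That of Hspa1a went from 0.27 to 0.14, and neither gene passed (adjusted p = 0.364 and 0.922, limma).

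Hspa8, the constitutive HSP70 of the cytosol, read 13.76 and 13.61 in control and 13.68 and 13.57 with SAHA, a change of -0.06 (95% interval -0.32 to 0.19). Its 4 probe sets ranged from -0.06 to -0.46, all on the lower side, and none passed. Hspa13, an ATPase of the microsomal fraction, read 8.91 and 8.87 in control and 9.22 and 9.22 with SAHA, and this change of 0.33 had an adjusted p of 0.277 (limma). Its 4 probe sets disagreed, from -0.17 to 0.36. Hspa14, a ribosome-associated HSP70, read 9.33 and 9.59 in control and 9.14 and 9.22 with SAHA (change -0.28, adjusted p = 0.393, limma). Hspa2 and the mitochondrial Hspa9 overlapped between groups.

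The HSP110 genes encode large relatives of HSP70 that act as its exchange factors, and none of 3 passed (limma, 0 at an unadjusted p under 0.05). Hsph1 read 10.24 and 9.65 in control and 9.61 and 9.37 with SAHA. The SAHA arrays lay below both control arrays by a narrow margin, and the change was -0.45 (95% interval -0.98 to 0.08, adjusted p = 0.346, limma). Its second probe set gave -0.55. Hspa4 and Hspa4l overlapped between groups, at 0.06 and -0.13, and the 5 probe sets of Hspa4l ran from -0.13 to 0.45.

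Among 9 J-domain genes none passed by limma. Before adjustment 18.1% of all genes were under 0.05, and so were 2 of these 9, both lower with SAHA. Dnajb2, whose protein hands HSP70 clients to the proteasome, read 8.17 and 8.07 in control and 7.36 and 7.72 with SAHA, a change of -0.58 ± 0.18 (SE, adjusted p = 0.163, limma). Dnaja1, a main partner of cytosolic HSP70, read 12.16 and 12.16 in control and 11.51 and 11.91 with SAHA, a change of -0.44 (adjusted p = 0.210, limma), and its further probe sets gave -0.19 and -0.41. In both genes SAHA replicate 1 was the lower array. Dnajb4 read 8.66 and 8.995 in control and 9.13 and 9.29 with SAHA, a change of 0.38 (adjusted p = 0.309, limma). Dnajc5, a cysteine string protein of secretory vesicles, read 11.26 and 11.25 in control and 11.12 and 11.12 with SAHA, a small change of -0.13 (adjusted p = 0.591, limma) that its 4 further probe sets also placed below 0. Dnajb1, the inducible HSP40, read 9.99 and 9.73 in control and 9.82 and 9.85 with SAHA, a change of -0.02, whereas its second probe set gave -0.34. The remaining J-domain genes, Dnaja2, Dnaja3, Dnajb6 and Dnajc7, overlapped between groups, with changes from -0.09 to 0.15.

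**Figure D3:**
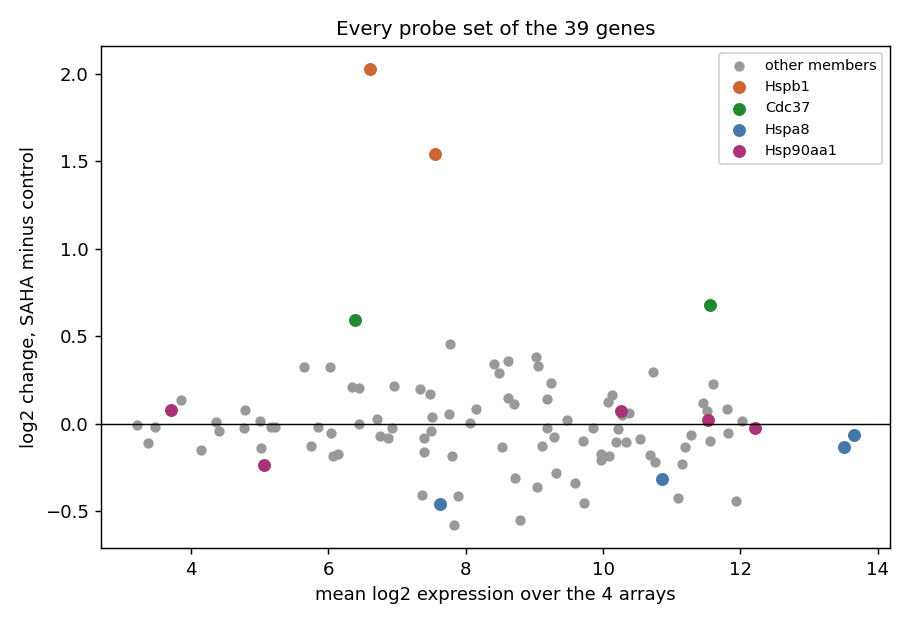
Log2 change (SAHA minus control, vertical axis) of all 103 probe sets of the 39 genes against their mean log2 expression over the 4 arrays (horizontal axis), with Hspb1, Cdc37, Hspa8 and Hsp90aa1 coloured. The 2 Hspb1 probe sets stand at 1.54 and 2.03 and the 2 Cdc37 probe sets at 0.68 and 0.59, above every probe set of the other members.

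The BAG proteins release clients from HSP70, and none of 3 passed (limma, 1 at an unadjusted p under 0.05, where 18.1% of all genes were). Bag1, which connects HSP70 to the proteasome, read 10.60 and 10.54 in control and 10.90 and 10.85 with SAHA, close within groups and separate between them, with a change of 0.30 (adjusted p = 0.272, limma). Bag3, the stress-inducible member that directs clients to autophagy, read 9.46 and 8.99 in control and 9.01 and 8.71 with SAHA, a change of -0.36 (adjusted p = 0.413, limma) with overlapping groups. Bag2, an inhibitor of STUB1, overlapped too, with SAHA arrays 0.74 apart.

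The chaperonins enclose a client in a chamber, HSP60 (Hspd1) and its lid HSP10 (Hspe1) in mitochondria and the CCT ring in the cytosol, which folds actin and tubulin. None of 6 passed (limma, 0 at an unadjusted p under 0.05). Hspd1, named here for the promoter it shares with Hspe1, read 11.61 and 10.99 in control and 11.02 and 10.73 with SAHA, a change of -0.43 (adjusted p = 0.380, limma). Hspe1 read 11.90 and 11.80 in control and 11.84 and 11.76 with SAHA, a change of -0.05. The CCT genes went both ways, with Cct5 at 11.35 and 11.18 in control and 11.15 and 10.91 with SAHA (change -0.23) and Tcp1 at 11.61 and 11.37 in control and 11.77 and 11.67 with SAHA (change 0.23). Neither change passed (adjusted p = 0.453 and 0.427, limma), and Cct2 and Cct3 overlapped between groups. Hsf2, the 1 heat shock factor measured among the members, read 4.70 and 4.81 in control and 4.83 and 4.82 with SAHA. The change was 0.08 (adjusted p = 0.783, limma). Its values lay below the array medians of 5.34 to 5.35, and its second probe set was under the 25th percentile on all 4 arrays. At so low a signal a change may go unseen.

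Across the 39 members both SAHA arrays lay above both control arrays for 8 genes and below them for 7, where 21.1% and 29.6% of all genes did so. The groups overlapped for the other 24 members, and they did not overlap for 50.7% of all genes. The larger gap between the 2 arrays of a group exceeded the change with SAHA for 29 of 39 members (74.4%), against 62% of all genes. The median of that gap was 0.33 log2 units over the members and 0.23 over all genes. Hspa1b, Bag2, Hspa1a, Hspd1, Hsph1 and Fkbp4, taken after their values were seen as those with the widest gaps, had gaps of 0.57 to 0.84. The 17 members outside the rule for named genes had changes from -0.43 to 0.21, with adjusted p-values of 0.380 and above (limma).

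**Figure D4:**
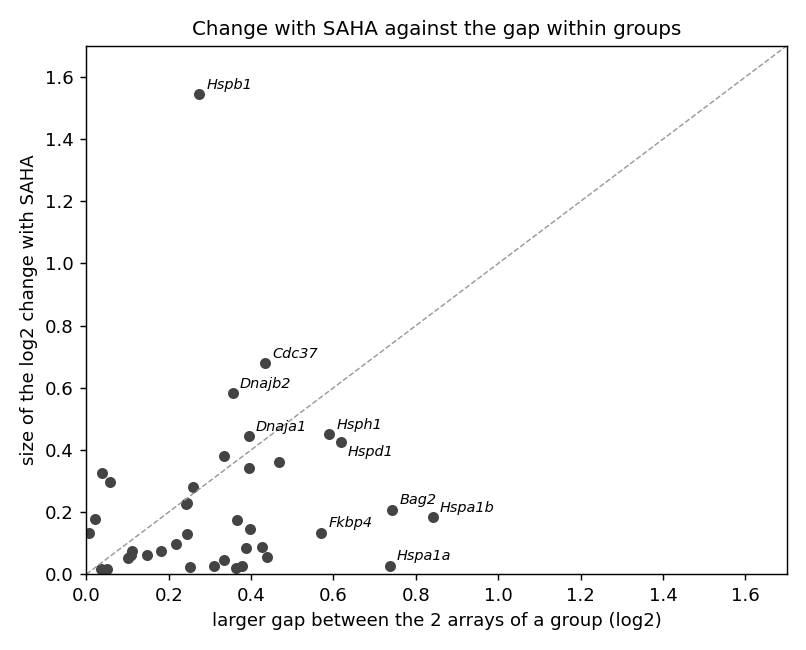
Size of the log2 change with SAHA (vertical axis) against the larger of the 2 within-group gaps between arrays (horizontal axis, log2 units) for the 39 members, with a dashed line where they are equal. Hspb1 lies far above the line at 1.54 against 0.27, whereas 29 members, Hspa1a and Hspa1b among them, lie below it.

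Other genes of protein folding were followed in 7 lists, with 81 of 85 genes measured. None passed (limma over all genes), and 14 of 81 were under 0.05 before adjustment, where 18.1% of all genes were. Their median change was -0.02. In the cytosol, the 4 other CCT subunits ran from -0.15 to 0.12, and of 6 prefoldin subunits, which pass actin and tubulin to the CCT ring, Pfdn6 read 10.09 and 9.97 in control and 10.90 and 10.69 with SAHA (change 0.77, adjusted p = 0.0534, limma). Among 16 other HSP90 and HSP70 cochaperones the widest value was that of St13, at 0.51, followed by Cdc37l1, a relative of Cdc37, at 0.43. Among 20 other J-domain genes Dnajc18 had 0.58 and Dnajb14 0.52. Of 13 mitochondrial quality control genes the protease Lonp1 had the widest change, at 0.59 (adjusted p = 0.138, limma), followed by Clpb at 0.38. Among 8 other small heat shock proteins Cryab, the lens and muscle protein alpha-B crystallin, read 5.25 and 5.80 in control and 4.39 and 4.78 with SAHA (change -0.94, adjusted p = 0.103, limma). The control replicate 1 value and both SAHA values lay below the array medians of 5.34 to 5.35, so the signal was low. Only the chosen set of its 3 probe sets is given. Hspb11, which despite its name is the intraflagellar transport protein IFT25, read 8.18 and 8.19 in control and 8.94 and 8.90 with SAHA (change 0.73, adjusted p = 0.0587, limma).

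Hdac6 itself read 8.17 and 7.90 in control and 8.68 and 8.23 with SAHA. Both SAHA arrays lay above both control arrays, and the change of 0.42 had a 95% interval of -0.07 to 0.91 and an adjusted p of 0.343 (limma). Among the 11 enzymes fixed as writers or erasers of acetyl groups on HSP90, HSF1 or histones none passed by limma. Before adjustment 18.1% of all genes were under 0.05, and so were 2 of the enzymes. These were Crebbp, an acetyltransferase, at -0.76 (adjusted p = 0.0759, limma), and Sirt1, a deacetylase of HSF1, at -0.53 (adjusted p = 0.267, limma).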

How the data were processed

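Biotin-labelled cRNA from 6 ug of total RNA was hybridised to Affymetrix arrays, per the labels' protocols. The authors deposited log2 values per probe set. The log2 scale was read from the values (2.59 to 15.0, array medians 5.34 to 5.35). R 2.7 is listed in the submitters' processing notes, and the summarisation and normalization methods are not given in the sources used here.

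Of 45101 probe sets 34958 had 1 symbol, updated by Entrez identifier through RefSeq for 34754, and the set of greatest mean signal over all arrays stood for each of 18194 genes. SAHA was compared with control by limma 3.58.1 in R 4.3.3 (eBayes with intensity trend, two-sided), without filter, adjusted over all genes. An exact permutation test of 2 against 2 arrays cannot go below 0.333. Arrays give no read depth, and having 2 per group limits how precise any value is. On simulated arrays of 18194 genes with independent noise the test called 27.8% of 2-fold and 74.6% of 4-fold changes. Of its calls there 2.48% were false.

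The members and lists were chosen with earlier results of these data known. Named were members past the threshold, the HSP90 and HSF genes and 8 others fixed by name, Hdac6, members whose groups did not overlap, and of each list those past it or up to 2 with the widest change. Promoters came from RefSeq (GRCm38.p6).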

Additional observations from a re-analysis of the deposited data

How the results depend on the processing

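Hspb1 kept its direction in all 13 alternatives and its call in 12, with changes of 1.31 to 1.79 on the log2 scale. The count of members called stayed at 1 under each change of spread model, normalization, offset, filter or probe set choice. It ranged from 0 to 1 without each array in turn, with the 0 without SAHA replicate 1, and the median change ranged from -0.131 to 0.0318. Of the other folding genes 1 passed without the intensity trend (Hspb11), and 0 to 1 without each array in turn, Cryab without control replicate 1. Over all genes 405 passed, against 226 among genes above the median level, where fewer genes were tested, 31 without SAHA replicate 1 and 90 without SAHA replicate 2. Those fits take the spread of a single remaining array from the other group.

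With replicate number as a block 9 of 39 members passed (Bag1, Cdc37, Dnajb4 and Hspb1 higher, Bag3, Dnaja1, Dnajb2, Hspd1 and Hsph1 lower). So did 19 of 81 other folding genes and 3616 of all 18194 genes, so the share of members was close to the background. Same-numbered arrays deviated together (r = 0.567 over 18194 genes, themselves not independent), and replicate 1 was the higher array in both groups for 25 of 39 members, against 28% of all genes. The labels do not say that a number marks a shared culture, so the block was not used for calls. Hdac6 passed with the block too (adjusted p = 0.0354, limma). On simulated arrays of this design 27.8% of 2-fold changes were called, so most changes of that size were missed there. The simulated noise was independent between arrays and 200 genes changed per draw. The share of changes missed and the share of false calls may therefore differ in these data.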

Other observations

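The chaperones of the endoplasmic reticulum, which fold secreted and membrane proteins, lay mostly below 0. Of 14 measured genes 12 had a negative change, where 10692 of all 18194 genes did, with a median of -0.18 against -0.05 over all genes, and none passed (limma, 3 at an unadjusted p under 0.05, where 18.1% of all genes were). Hspa5, the HSP70 of this compartment, read 13.13 and 12.88 in control and 12.46 and 12.42 with SAHA (change -0.56, adjusted p = 0.0811, limma). Hsp90b1, its HSP90, named after its value was seen, read 12.12 and 12.01 in control and 11.54 and 11.60 with SAHA (change -0.50, adjusted p = 0.0942, limma). The disulfide isomerase Pdia6 had a change of -0.63 (adjusted p = 0.124, limma). Hspa5 and Hsp90b1 had intervals of -0.86 to -0.27 and -0.77 to -0.22. The intervals of their cytosolic relatives Hspa8 and Hsp90aa1 included 0 for the probe sets chosen here. A further Hspa8 probe set had a change of -0.32 with an interval of -0.625 to -0.01, so this contrast depends on the probe set. The difference between the compartments was not tested.

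Among 9 genes fixed as regulators or partners of heat shock factor 1 none passed by limma. Before adjustment 2 were under 0.05 (Fbxw7 and Mapkapk2), where 18.1% of all genes were. Fbxw7, the ubiquitin ligase subunit that marks HSF1 for degradation, had a change of 0.53 (adjusted p = 0.139, limma). Mapkapk2, named after its value was seen, had 0.32 (adjusted p = 0.274, limma). Plk1, a mitotic kinase, had -0.52 (adjusted p = 0.313, limma) and was not under 0.05 before adjustment.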
